A study of Mus musculus with 39 samples.

Results

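Gene expression was compared between lungs of mice that never inhaled smoke, sampled at 2 points 6 weeks apart. The arrays were chosen by their titles alone, 5 of the 12 week break sham group against 5 of the 6 week break sham group, which makes 10 of the 39 arrays of a study of mainstream tobacco smoke (MTS). Both groups were male C57BL/6 × CBA F1 hybrid mice, aged 8 to 10 weeks at the start by the labels. Their recorded exposure was to restrainers alone. The 6 week break sham mice had 6 weeks of sham sessions and then a break of 6 weeks, so their lungs were taken 12 weeks after the start. The 12 week break sham mice had 12 weeks of sham sessions and a break of 6 weeks, and their lungs were taken 18 weeks after the start. The older group thus differs by 6 weeks of age and by 6 further weeks of restraint, and these cannot be told apart. The labels give the same interval of 3 h after exposure to groups with and without a break, so when the break shams were last restrained is not settled.

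The study set 4 smoke groups against 4 sham groups, with and without a break. Lung RNA, labelled with Cy5, was hybridized with a universal mouse reference RNA, labelled with Cy3. All values below are log2 ratios of lung to reference, and all differences are 12 week minus 6 week on that log2 scale, where 1 unit is a doubling. Each array holds RNA from part of the left lobe of 1 mouse. In such bulk samples, fewer cells of a type and less RNA per cell cannot be told apart. Across groups, the labels place the arrays in 5 label runs, a sequence of exposure days in which each run holds 1 lung of each break sham group. A run is a position in that sequence, not a known laboratory batch.

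Lungs of adult mice have formed their alveoli and hold alveolar epithelium, airway epithelium, endothelium, smooth muscle, fibroblasts and resident macrophages, together with blood leukocytes in the vessels. Several gene programmes in lung tissue can move within hours. These include immediate early genes, which respond to handling and to the time between death and freezing, heat shock genes, glucocorticoid-responsive genes and the circadian clock.

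Median Cy5 signal was 2.57 to 7.86 times the local background on the 6 week arrays and 2.49 to 3.89 times on the 12 week arrays, and the 6 week array was the brighter one in 4 of 5 runs. From 62.7% to 94.6% of probes exceeded the detection threshold on the 6 week arrays and from 67.4% to 86.2% on the 12 week arrays. Label run accounted for a median of 49.2% of the spread of a probe over the 10 arrays and group for 6.41%. With 5 runs over 10 arrays, a large run share arises even without a run effect, so 49.2% alone does not show one. The leading principal component, with 21.3% of the variance, was almost wholly a difference between runs (96.4% between runs, 2.68% between groups). Probes below threshold on a single array numbered 731 on the 6 week array of run 5 and 511 on the 12 week array of run 1. Of these, 0 and 6 were over 10 times the threshold on other arrays. On the 12 week array of run 4, 600 probes were below threshold there alone, and 83 of these were that bright elsewhere. Sftpa1, Per2, Lyve1, Lox, Csf2 and Lratd1 are among the spots near background on that array, so their values are given with and without it. Mean levels of the 24 measured markers of alveolar type II cells were 2.25 to 3.01 in the younger group and 2.42 to 2.93 in the older. The Y-linked genes Kdm5d and Eif2s3y were above threshold in 10 of 10 arrays of these males. The Y-linked gene Uty was dim, with Cy5 signals of 137 to 167 on the 6 week arrays other than that of run 1. Its difference ran from −1.43 to −0.38 over 27 alternatives. Cyp1a1 and Cyp1b1, enzymes induced through the aryl hydrocarbon receptor by smoke, differed by −0.17 (95% confidence interval −1.38 to 1.03) and 0.01 (−0.75 to 0.78).

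No probe differed between the older and the younger break shams after correction over the 17560 probes tested (0% called; limma, Benjamini-Hochberg, smallest adjusted p 0.209). At an unadjusted p under 0.05 there were 588 probes higher in the older lungs (3.35% of those tested) and 752 lower (4.28%), 1340 in all. The median absolute difference was 0.12 and 51 probes differed by more than 1 unit either way. The design was precise enough to bound most genes. The 95% confidence interval extended a median of 0.31 to either side, it lay within 1 unit of 0 for 94.9% of probes, and it lay within 0.5 for 59.7%. Values of the 5 older lungs lay wholly above those of the 5 younger lungs for 62 probes (0.353%) and wholly below for 97 (0.552%). Within runs, 601 probes (3.42%) were higher in the older lung in 5 of 5 runs and 781 (4.45%) were lower. As nothing passed the correction, the values that follow describe these 10 lungs, and no gene is called changed. Spots marked by the image analysis software made up 34.7% to 61% of gene spots on these arrays. With them left out, the differences given below for Atp5o, Cdkn1c, Gpx2, Irf7 and Pon1 turned sign. For many genes below, a value that moved by over 1.5 times without both arrays of a run, or without 1 array, is given beside the difference.

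**Figure D1:**
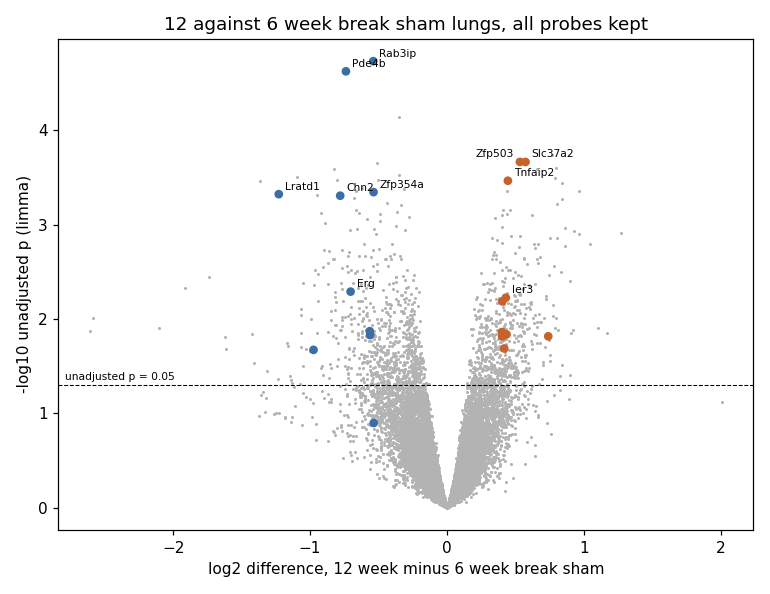
Log2 difference (12 week minus 6 week break sham, x axis) against −log10 of the unadjusted limma p (y axis) for the 17560 probes kept. Coloured points are the 10 genes with the largest positive and the 10 with the largest negative difference among those whose groups do not overlap, and the dashed line is an unadjusted p of 0.05. Most probes lie close to 0, and the smallest adjusted p is 0.209.

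Of 17560 probes, 14260 were above threshold in at least 8 of the 10 arrays. Among those with 1 symbol, the non-overlapping set had 36 higher and 73 lower in the older lungs. Over all 17560 probes the shares without overlap were 0.353% higher and 0.552% lower, and whether these exceed chance was not tested. The 10 genes with the largest differences each way are described here. They were picked for not overlapping, so their separation is a description. Several of those higher in the older lungs are known from leukocytes, while the lymphocyte receptor Tnfrsf14 was in the lower set. Tnfaip2, a tumour necrosis factor-inducible gene, read −1.46, −1.41, −1.26, −1.34 and −1.60 in the younger lungs of runs 1 to 5 and −1.02, −1.08, −1.01, −0.79 and −0.94 in the older. The lowest older lung stood above the highest younger one, and the difference was 0.45 (SE 0.11, adjusted p 0.31). Plek, the protein kinase C substrate pleckstrin of platelets and leukocytes, read 0.35, 0.38, 0.48, 0.23 and 0.12 against 0.60, 0.89, 0.51, 0.69 and 0.89, a difference of 0.40. Lrrc25, a leukocyte membrane protein, differed by 0.40 and Slc37a2, a sugar phosphate exchanger abundant in macrophages, by 0.57, with 12 week values of −0.66 to −0.16 against −1.30 to −0.69. The remaining members were Sync, which encodes the intermediate filament protein syncoilin (0.74), the transcriptional repressor Zfp503 (0.53), 2410022M11Rik (0.44), the early response gene Ier3 (0.43), the zinc finger gene Zkscan8 (0.42) and the p53-induced gene Trp53i13 (0.40). Adjusted p for these 10 ran from 0.31 to 0.554.

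The lower set included the 2 probes with the smallest p. Pde4b, a phosphodiesterase that degrades cyclic AMP, read 2.00, 2.69, 2.57, 2.96 and 2.00 in the younger lungs and 1.09, 1.63, 1.99, 1.98 and 1.85 in the older. Its groups touch without overlapping, and it was lower in 5 of 5 runs (difference −0.74, SE 0.15, adjusted p 0.209). With arrays weighted by their quality it would pass, with an adjusted p of 0.0238, and over the 29 alternatives its adjusted p ran from 0.0238 to 0.847 and its difference from −0.88 to −0.65. Rab3ip, an exchange factor for Rab GTPases, read 0.68, 0.58, 0.67, 0.77 and 0.89 against −0.30, 0.36, 0.39, 0.19 and 0.25, a difference of −0.54 (SE 0.11, adjusted p 0.209). Without the 12 week array of run 2 it would pass, at −0.63 with an adjusted p of 0.0225, the lowest of 28 alternatives that reached 0.847. Ift140, a ciliary transport gene outside the rule and named after its values were seen, passed likewise without the 6 week array of run 2, at 0.71.

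Erg, an endothelial transcription factor, differed by −0.70, with younger lungs at 3.12, 2.89, 2.33, 2.37 and 2.49 and older lungs at 2.22, 1.86, 1.48, 1.90 and 2.23. Every younger lung was above every older one, with the younger lung of run 3 close to the older lungs of runs 1 and 5. Chn2, a Rac GTPase-activating protein, differed by −0.78, but a dimmer second probe for it gave −0.26 with overlapping groups. Lratd1 had the largest difference of the set, −1.23, with the run 4 array at −0.02 against 1.51 to 2.13 on the other older lungs. It was −0.83 without that array, and its other probe gave −0.35 with overlapping groups. Kctd8, a subunit associated with GABA-B receptors, differed by −0.98, Tnfrsf14, a receptor on lymphocytes, by −0.56, and the chaperonin-like gene Mkks by −0.56. Zfp354a and the polarity gene Patj each differed by −0.54. Patj had the widest interval relative to its size, from −1.23 to 0.16.

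**Figure D2:**
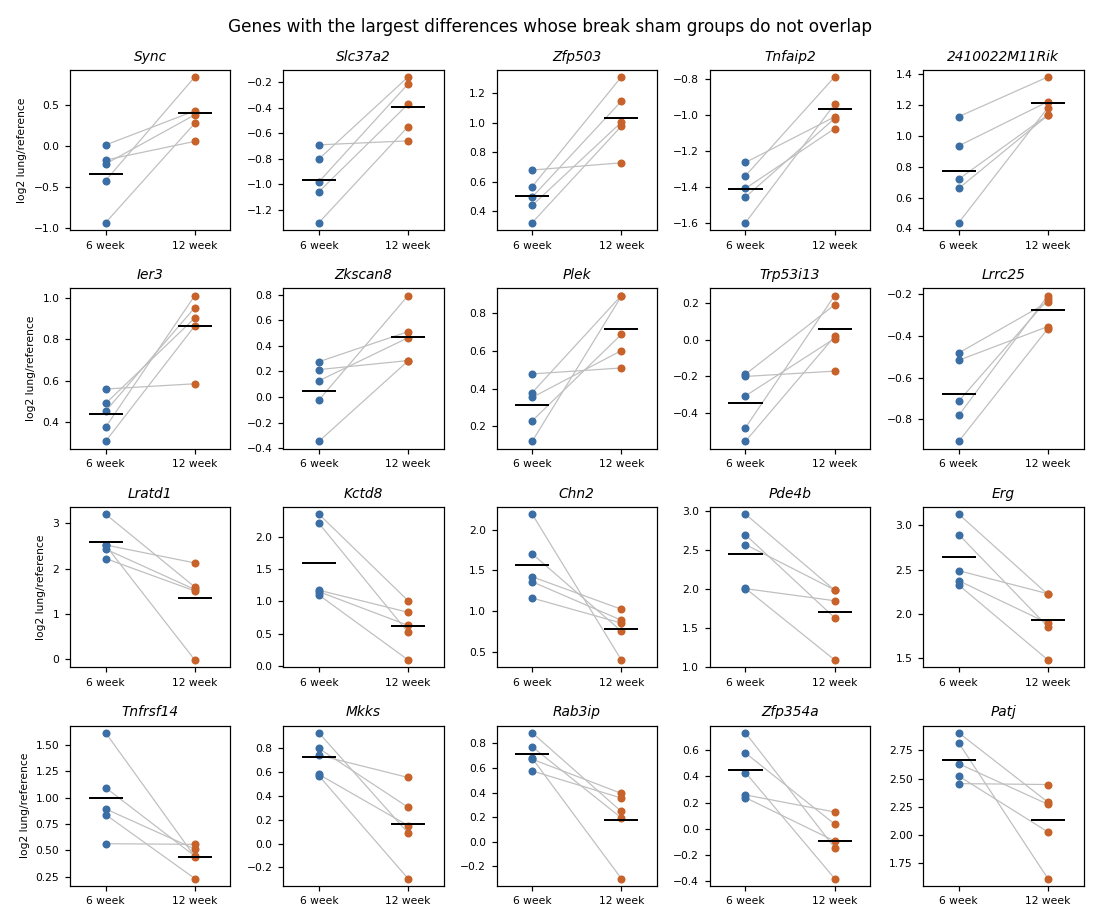
Log2 lung/reference (y axes, each panel on its own scale) of the 20 genes with the largest differences whose groups do not overlap. Points are single lungs (blue 6 week, orange 12 week), grey lines join the lungs of 1 label run and black bars are group means. In Tnfaip2 all older lungs lie between −1.08 and −0.79 and all younger lungs between −1.60 and −1.26, while in Lratd1 a single older lung at −0.02 sets much of the difference.

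Gene lists written for lung cell types and programmes were then described by their members, without a test. Over all probes the median difference was −0.013, with 8232 probes above 0 and 9328 below. Of the 36 lists drawn, the neutrophil, immediate early and glucocorticoid-responsive lists had the highest medians, and the fat, ciliated cell, oesophagus and cartilage, and mitochondrial lists the lowest. For most lists the 5 runs lay on both sides of 0.

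**Figure D3:**
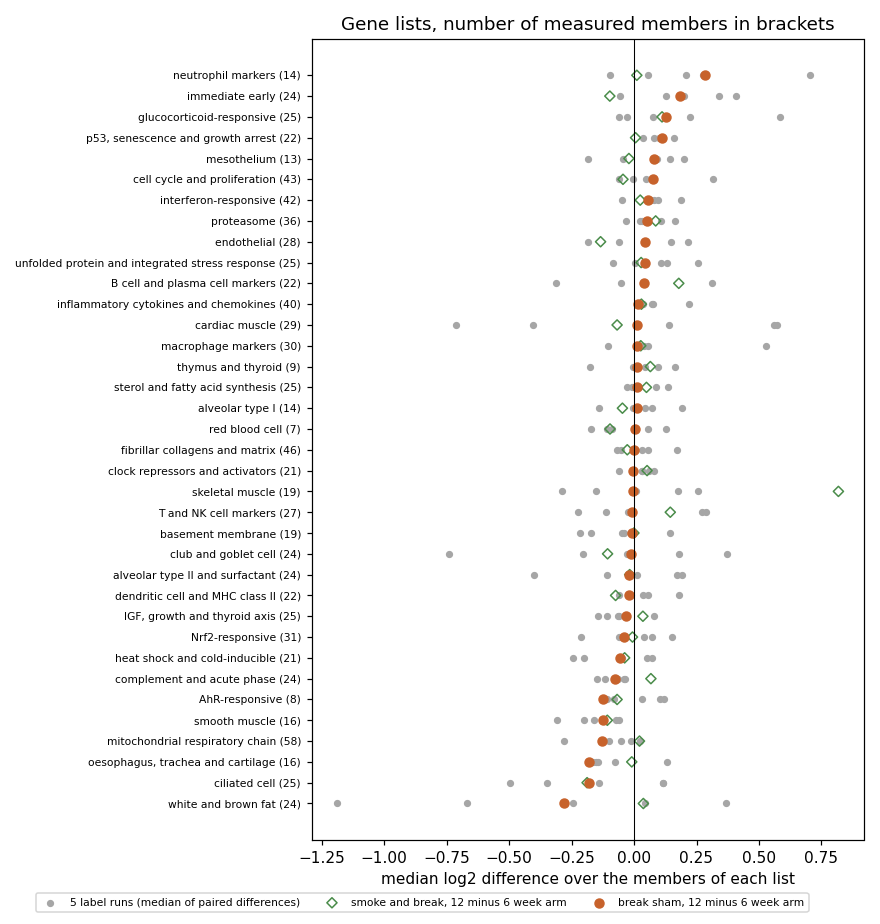
Median log2 difference (12 minus 6 week arm, x axis) over the measured members of each gene list (y axis, number of members in brackets). Orange points are the break sham fit, grey points the medians of the paired differences in each of the 5 label runs and open green diamonds the same step in smoke and break lungs. The neutrophil list is highest at 0.28 and the fat list lowest at −0.28, and both have runs on either side of 0.

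Of 14 measured neutrophil markers, 12 were higher in the older lungs, with a list median of 0.28 and 3 at an unadjusted p under 0.05 (Mmp9, S100a8 and S100a9), or 21.4% against 3.35% of all probes. S100a8, a calcium-binding protein that makes up much of the neutrophil cytosol, read 1.42, 1.60, 2.06, 2.43 and 0.04 in the younger lungs and 1.72, 1.85, 3.57, 3.10 and 3.13 in the older. The groups overlap, the older lung was the higher in 5 of 5 runs, and the lowest value belongs to the 6 week lung of run 5. The difference was 1.17 (SE 0.45, adjusted p 0.51), or 0.68 without both arrays of run 5. Its partner S100a9 read 4.55, 4.51, 5.83, 6.02 and 4.78 against 5.33, 5.82, 6.52, 5.90 and 5.91, a difference of 0.76. The chemokine receptor Cxcr2 differed by 0.82, or 0.51 without run 5, and the collagenase Mmp8 by 0.73, while Ltf, which encodes the granule protein lactoferrin, was among the 2 markers that were lower. The mean level of the 14 markers was 0.64 to 1.25 in the younger lungs and 1.06 to 1.54 in the older. In runs 1 to 5 the list median was 0.06, 0.28, 0.21, −0.10 and 0.70. Without run 5 it was 0.16 with 1 marker at an unadjusted p under 0.05, and in the smoke and break lungs it was 0.01. For the same step in shams without a break it was 0.22.

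Il1b, the inflammatory cytokine interleukin 1 beta, read 2.13, 2.06, 3.01, 3.48 and 1.18 in the younger lungs and 2.42, 2.88, 3.94, 3.43 and 3.66 in the older. As in S100a8, the lowest value was the younger lung of run 5 and the highest the older lung of run 3, and the difference was 0.90, or 0.50 without run 5. Ccl9, a chemokine made by myeloid cells, was −0.84 to −0.28 against −0.47 to 0.03, a difference of 0.50. The B cell chemokine Cxcl13 differed by −0.47, or −0.31 without run 1, and Csf2, encoding granulocyte-macrophage colony-stimulating factor, by −0.50, or −0.17 without the run 4 array. The inflammatory cytokine list as a whole was balanced, with 20 of its 40 measured members higher and a median of 0.02.

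Immediate early genes are transcribed within minutes of a stimulus without new protein synthesis. Of 24 measured, 20 were higher in the older lungs, with a median of 0.18 and 3 at an unadjusted p under 0.05 (Jund, Ier3 and Nr4a1), or 12.5% against 3.35% of all probes. Ier3 read 0.37, 0.45, 0.30, 0.56 and 0.49 against 1.01, 0.96, 0.87, 0.58 and 0.90, without overlap. Nr4a1, a nuclear receptor of this class, read 0.90, 2.36, 2.92, 3.25 and 2.32 against 1.99, 3.36, 2.99, 3.70 and 3.27. It was higher in the older lung in 5 of 5 runs, by a fitted 0.71 (SE 0.29, adjusted p 0.546), although the younger lungs alone spanned more than that. Btg2 differed by 0.46, or 0.21 without the 12 week array of run 5, and the matricellular gene Ccn1 by 0.40. Arrays scaled by their median in place of loess gave a list median of 0.05 with no member at an unadjusted p under 0.05. In smoke and break lungs the median was −0.10 and in shams without a break −0.09. The related glucocorticoid-responsive list had 18 of 25 members higher and a median of 0.13, or 0.02 without run 5, with Errfi1 at 0.58 and Map3k6 at 0.42, which were 0.12 and 0.17 without that run. In Errfi1 the younger lungs spanned 0.57 to 3.37, which covered all the older ones.

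**Figure D4:**
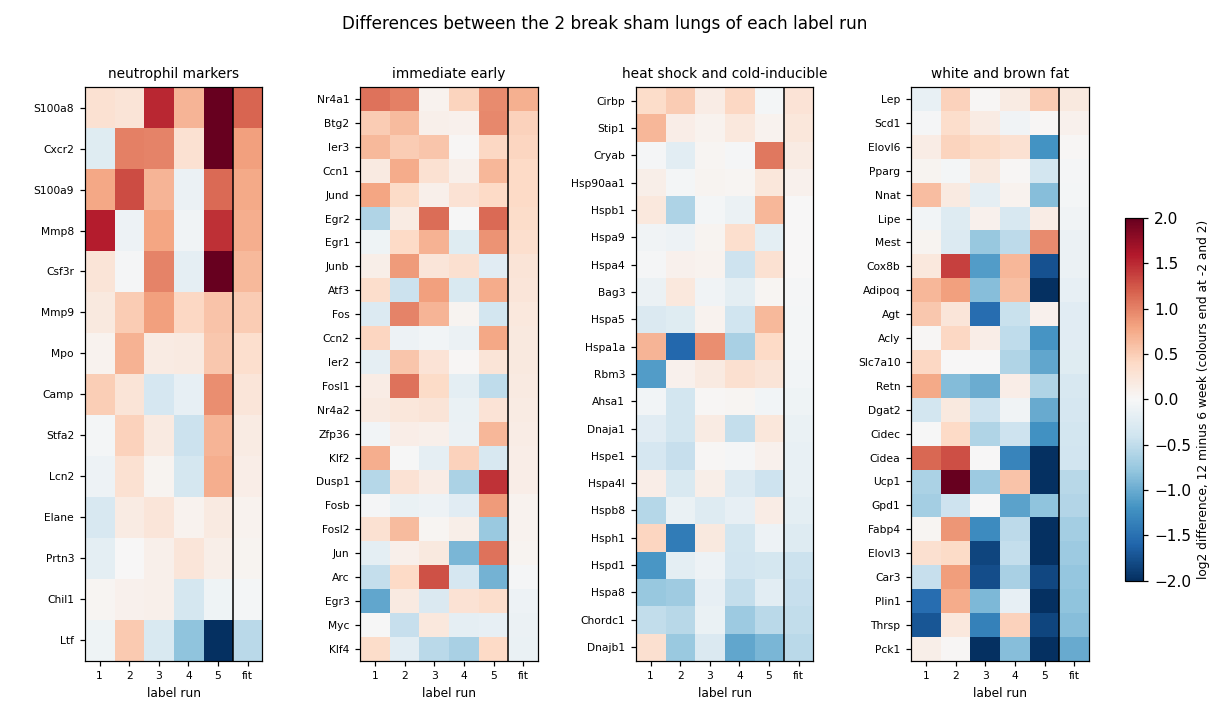
Log2 difference between the 12 and the 6 week break sham lung of each label run (columns 1 to 5) and the fitted difference (column fit) for each measured member (y axis) of 4 gene lists. Red is higher and blue lower in the older lung, with colours ending at −2 and 2. The fat list is dark blue in runs 3 and 5 and mostly pale or red in run 2, and the strongest neutrophil values are in run 5.

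Heat shock genes encode chaperones under the transcription factor Hsf1, which binds inverted repeats of the unit GAA in their promoters. Of 21 measured heat shock and cold-inducible genes, 14 were lower in the older lungs and 4 of them, 19.0% against 4.28% of all probes, at an unadjusted p under 0.05. Chordc1, a co-chaperone of Hsp90, read 0.60, 0.70, 0.66, 1.02 and 1.06 in the younger lungs and 0.10, 0.14, 0.53, 0.30 and 0.51 in the older. Its groups do not overlap and the difference was −0.49 (SE 0.13, adjusted p 0.325). Dnajb1, the Hsp40 that works with Hsp70, read −0.45, 0.35, −0.14, 0.58 and 0.34 against −0.12, −0.39, −0.44, −0.46 and −0.58, and was lower in 4 of 5 runs by a fitted −0.53. Hspd1, the mitochondrial chaperonin, differed by −0.44, or −0.26 without run 1, and the constitutive chaperone Hspa8 by −0.46. In Hspd1 the younger lung of run 1, at −0.36, stood far above the other 4, which read −1.66 to −1.29 and overlapped the older lungs at −1.78 to −1.52. Its reference signal on that run 1 array was at the scanner limit, so the value of −0.36 is uncertain. The list median was −0.06, near that of all probes, and −0.23 under median scaling.

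The promoters of 2 of these genes are shown because they hold the extended Hsf1 element. The windows are RefSeq sequence of build GRCm38.p6, each 300 bases long across the start site, written 5′ to 3′ on the gene's strand. Capitals mark the matches to GAANNTTCNNGAA or its reverse complement TTCNNGAANNTTC, merged where they overlap.
Chordc1, chr9:18292017-18292316, plus strand: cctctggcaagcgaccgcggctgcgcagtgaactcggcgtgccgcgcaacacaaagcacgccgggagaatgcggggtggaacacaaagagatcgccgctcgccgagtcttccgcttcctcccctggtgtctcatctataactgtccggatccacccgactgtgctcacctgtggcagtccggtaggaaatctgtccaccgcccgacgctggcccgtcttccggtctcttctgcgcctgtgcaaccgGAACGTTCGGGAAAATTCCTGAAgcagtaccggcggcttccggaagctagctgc
Hspd1, chr1:55087883-55088182, minus strand: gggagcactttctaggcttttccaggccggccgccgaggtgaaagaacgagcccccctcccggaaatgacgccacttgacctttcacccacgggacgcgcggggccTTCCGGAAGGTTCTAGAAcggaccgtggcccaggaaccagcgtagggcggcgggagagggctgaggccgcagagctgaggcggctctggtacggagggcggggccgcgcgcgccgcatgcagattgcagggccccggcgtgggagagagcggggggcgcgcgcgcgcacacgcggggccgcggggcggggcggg
This element occurs in 198 of 32851 promoter windows of that length (0.603%). Of the 21 measured genes of the list, 16 had a window, and 4 of these held the element (Chordc1, Hspd1, Hspe1 and Hsph1). The windows of Hspd1 and Hspe1 overlap, since these 2 genes share a promoter and run in opposite directions. Hspe1 and Hsph1 did not reach an unadjusted p of 0.05, and the windows of Dnajb1 did not hold the element.

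Genes of the mitochondrial respiratory chain encode the subunits of oxidative phosphorylation. Of 58 measured, 47 were lower in the older lungs with a median of −0.13, and 12 (20.7% against 4.28% of all probes) had an unadjusted p under 0.05, each lower. Atp5c1, the gamma subunit of ATP synthase, read 0.15, −0.63, −0.54, −0.71 and −0.63 in the younger lungs and −0.96, −0.89, −0.77, −0.95 and −0.90 in the older. The groups do not overlap, the older lungs lie close together, and the younger lung of run 1 is by far the highest. On that array the Atp5c1 signal was at the scanner limit in both dyes, so its ratio there is uncertain. That lung was also the highest of its group for Atp5o (difference −0.36), the complex I subunit gene Ndufb8 (−0.37) and Hspd1. Atp5c1 differed by −0.42, and without run 1 Atp5c1, Atp5o and Ndufb8 were at −0.25, −0.18 and −0.15. Cytochrome c, Cycs, differed by −0.32, but by −0.10 without run 1 and by −0.06 on its other probe. The mean level of the 58 genes was −0.39 to −0.22 in the younger lungs and −0.49 to −0.32 in the older. The list depended on the fit. Without run 5 its median was −0.07 with 3 genes at an unadjusted p under 0.05, and with the 10 arrays fitted alone 2 genes reached it. Under median scaling the median was −0.31 with 31 such genes. It was 0.02 in smoke and break lungs and 0.04 in shams without a break.

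Fat markers had the lowest list median, −0.28, with 21 of 24 lower in the older lungs. Plin1, which coats the lipid droplets of adipocytes, read 1.68, 0.11, 1.62, 0.53 and 3.01 in the younger lungs and 0.16, 0.86, 0.72, 0.36 and 0.80 in the older. The older lungs lay within a narrow band, the 3 high values were younger lungs, and the difference of −0.81 was −0.46 without run 5. Pck1, an enzyme of glyceroneogenesis in fat, read −0.12 to 2.76 in the younger lungs against 0.00 to 0.69, Thrsp, a regulator of lipogenesis, differed by −0.85, or −0.54 without the 6 week array of run 5, and Car3 by −0.77, or −1.17 without run 2 and −0.51 without run 5. The mean level of the 24 markers was 1.04, 1.02, 1.80, 1.18 and 2.43 in the younger lungs and 1.02, 1.45, 1.16, 0.97 and 1.14 in the older, so runs 3 and 5 of the younger group carried the difference. Without run 5 the median was −0.15, with 14 of 24 lower. Cardiac muscle markers were also highest in those younger lungs, at 2.17 in run 3 and 2.25 in run 5 against 0.98 to 1.39 in the rest of that group. The list median for cardiac muscle was 0.01 and for skeletal muscle −0.01. The part that heart or fat tissue at the hilum plays in these values was not tested.

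Macrophage markers were evenly split, 15 of 30 on either side with a median of 0.01. At an unadjusted p under 0.05, 4 were higher (13.3% against 3.35% of all probes) and 2 lower (6.67% against 4.28%). Without run 5, 1 was higher and 2 were lower at that limit. Members known from alveolar macrophages differed in both directions. Siglecf, their surface lectin, read 2.77, 2.56, 2.22, 2.23 and 1.25 in the younger lungs and 1.98, 1.42, 1.5, 0.11 and 1.79 in the older, a difference of −0.84 (SE 0.31, adjusted p 0.502). It was lower in 4 of 5 runs, and the difference was −0.57 without the 12 week array of run 4. Fabp4, a fatty acid binding protein of alveolar macrophages and also of fat, differed by −0.68 with 5.56 in the younger lung of run 5, and by −0.22 without that run or −1.07 without run 2. The chitinase-like gene Chil3 differed by 0.59 in the opposite direction, or 0.31 without run 5. Cd163, a scavenger receptor of interstitial macrophages, differed by −0.61, with 0.51 in the older lung of run 1 against 1.77 to 2.84 in the other 4 older lungs, and by −0.11 without run 1. Of the T and NK cell markers, 13 of 27 were higher, with a median of −0.01. At an unadjusted p under 0.05, 2 were higher and 2 lower (7.41% each, against 3.35% and 4.28% of all probes). Those named here were lower, with Cd8a at −0.51 and Cd3d at −0.56, the latter −0.18 without run 1. Cd8b1 differed by −0.52, or −0.32 without the run 4 array and −0.88 without run 5. B cell markers had 14 of 22 higher and a median of 0.04. The IgM receptor Fcmr differed by 0.63, or 0.34 without run 1. Fcrla differed by 0.39, but by 1.01 without the run 4 array, 0.08 without run 5 and −0.05 without run 1, where its sign turned.

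Structural cells of the lung differed little as groups. Endothelial markers had a median of 0.05 with 16 of 28 higher, yet the 4 with an unadjusted p under 0.05 were all lower (14.3% against 4.28% of all probes). Pecam1, the junctional molecule CD31, read 3.31, 2.13, 2.52, 2.60 and 2.94 in the younger lungs and 1.96, 0.33, 2.64, 2.23 and 2.30 in the older. It differed by −0.81, or −0.56 without run 2, whose older lung was the lowest. Lyve1, a hyaluronan receptor of lymphatic vessels, differed by −0.91, or −0.53 without the run 4 array.

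Alveolar type II markers had a median of −0.02 and type I markers of 0.01. Sftpa1, surfactant protein A, read 4.77, 4.64, 4.90, 5.22 and 4.55 in the younger lungs and 4.44, 4.62, 4.93, −0.20 and 4.52 in the older. The value of −0.20 alone makes the difference of −1.15, which was −0.09 without that array. Sftpc was saturated on every array, so no difference is given for it. Muc1, an apical mucin, differed by −0.43.

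In the airways, 23 of 25 ciliated cell markers were lower in the older lungs with a median of −0.18, of which 1 had an unadjusted p under 0.05 (4% against 4.28% of all probes). Without run 5, 15 of 25 were lower and the median was −0.05. For the same step it was −0.19 in smoke and break lungs and −0.17 in shams without a break. The ciliogenesis factor Rfx3 went the other way by 0.50, or 0.28 without run 1, and Rsph4a, of the ciliary radial spoke, differed by −0.46, or −0.30 without the run 4 array. Club and goblet cell markers had a median of −0.01, with run medians from −0.74 to 0.37. Pon1, a lactonase, differed by −0.86 but by −0.14 without the run 4 array, and Gabrp, a GABA receptor subunit of airway epithelium, by −0.63, or −1.01 without run 1 and −0.30 without run 5. Smooth muscle markers were lower in 12 of 16, with a median of −0.12 and run medians below 0 in all 5 runs. Myh11, the smooth muscle myosin heavy chain, read 2.76, 2.51, 3.14, 3.00 and 2.69 against 2.10, 1.98, 2.67, 2.73 and 2.17, a difference of −0.49. The older lungs of runs 3 and 4 lie within the range of the younger group, and the older lung was the lower in 5 of 5 runs. Cnn1, calponin, read 3.85, 4.19, 4.25, 4.21 and 4.64 against 3.51, 4.10, 3.90, 3.99 and 3.72, a difference of −0.38, or −0.25 without run 5. In smoke and break lungs it was −0.60.

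Matrix genes split evenly. Of 46 fibrillar collagen and matrix genes, 23 were higher and 23 lower, with a median of 0.00. Col3a1, a major collagen of the lung interstitium, read −0.08, −0.43, −0.68, −0.85 and −0.70 in the younger lungs and −1.09, −0.95, −1.05, −1.07 and −0.74 in the older, a difference of −0.43, or −0.29 without run 1. Fbln1, an elastic fibre protein, differed by −0.46 without overlap, or −0.30 without the run 4 array, while Timp3, an inhibitor of metalloproteinases, differed by 0.60, or 0.37 without run 1. In Timp3 the younger lungs of run 1 (0.15) and run 5 (1.12) stood below all others. Lox, which cross-links collagen, differed by 0.58, or 0.19 without the run 4 array. Of the basement membrane list, Col4a6 differed by −0.66 and Lama4 by −0.63, with 11 of 19 lower and a median of −0.01. Without run 5, 15 of 19 were lower with a median of −0.14, and under median scaling 17 of 19 with −0.15.

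Of 43 cell cycle genes, 30 were higher in the older lungs and the median was 0.08. Under median scaling 20 were higher and the median was −0.02. In runs 1 to 5 the list median was 0.05, −0.06, 0.07, 0.315 and −0.01. Top2a, the topoisomerase of dividing cells, read −3.98, −3.67, −3.98, −3.52 and −3.37 in the younger lungs and −3.38, −3.01, −3.49, −2.90 and −2.57 in the older. It was higher in 5 of 5 runs with overlapping groups, by 0.63 (SE 0.23, adjusted p 0.502). Cdc25c differed by 0.58, set by the older lung of run 5 at −1.08, and by 0.19 without that run. Of 22 genes for p53, senescence and growth arrest, 16 were higher with a median of 0.11, or 0.0056 under median scaling. Cdkn2a, the locus of the senescence marker p16, read −1.67, −2.64, −2.81, −2.72 and −2.24 against −2.22, −1.98, −2.53, −2.31 and −1.12. That difference was 0.39 with an interval from −0.004 to 0.78, and the run 1 pair went the other way. It was 0.62 without run 1 and 0.20 without run 5. The stress gene Gadd45g differed by 0.41, the apoptosis gene Bbc3 by −0.35 and the growth-restraining imprinted gene Cdkn1c by −0.38.

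Interferon-responsive genes were higher in 29 of 42 with a median of 0.06. Oasl1 read −1.89, −2.20, −2.04, −2.16 and −1.92 in the younger lungs and −0.74, −1.58, −1.92, −1.65 and −1.64 in the older, a difference of 0.54. Irf7, the regulator that amplifies the interferon response, read −0.93, −0.88, −1.16, −1.18 and −1.29 against −0.93, 0.31, −0.90, −0.35 and −0.60, a difference of 0.60. The older lung of run 2 was the highest in Irf7 and that of run 1 in Oasl1, so no single lung led both. Under median scaling the list median was −0.06.

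Genes of the Nrf2 antioxidant response, which smoke induces, had 18 of 31 members lower and a median of −0.04, and the 4 with an unadjusted p under 0.05 (12.9% against 4.28% of all probes) were all lower. Without run 5 the median was 0.01 with 2 such members, and under median scaling −0.17 with 7. Prdx1, a peroxiredoxin, read 0.10, −0.76, −0.38, −0.58 and −0.75 in the younger lungs and −1.10, −1.08, −0.48, −0.82 and −0.93 in the older, a difference of −0.41 (SE 0.12, adjusted p 0.398). It was lower in 5 of 5 runs with overlapping groups, and by −0.21 without run 1. Cat, catalase, differed by −0.46, the glutathione peroxidase Gpx2 by −0.61, and Gclc, the catalytic subunit of glutathione synthesis, by −0.52, or −0.18 without the run 4 array.

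Circadian clock genes cycle over the day in lung as in other tissues, and the hours of sampling are not given in the sources used here. Of 21 measured genes, 9 were higher and 12 lower with a median of 0.00. The activators Arntl, Clock and Rora differed by 0.07, −0.12 and 0.10, and the repressors Nr1d1, Nr1d2, Cry1 and Per1 by −0.04, −0.03, −0.13 and 0.17. Their groups overlapped throughout. The output genes Dbp, Tef and Hlf differed by 0.24, −0.21 and 0.22. Per2 differed by −0.64, or −0.24 without the run 4 array, and Per3 by −0.31, or −0.17 without the run 4 array, −0.46 without run 2 and −0.16 without run 5. Nfil3 differed by 0.32. The activator Npas2 was lower, by −0.37 to −1.14 over 27 alternatives. It was −0.44 without run 1, −0.45 without run 2 and −0.77 without run 5. Its younger lung of run 1 (1.52) and older lung of run 2 (−1.35) stood apart from their groups, and its Cy5 signal was low. Bhlhe41 differed by 0.42, or 0.27 without the 12 week array of run 3, and Bhlhe40 by 0.20, or 0.06 without that of run 1. The kinases Csnk1d and Csnk1e and the deubiquitinase Usp2 differed by 0.03, −0.005 and −0.002. For Nr1d1 the younger lungs read 0.98 to 1.83 and the older 1.10 to 1.69, while the same step in smoke and break lungs was 0.68 (95% confidence interval 0.37 to 0.98). The difference between these steps did not pass the correction (adjusted p 0.998).

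The same step of 6 weeks can be read in mice that smoked before the break, 5 in each arm, which share no array with the break shams but share the label runs. No probe passed there either (limma, smallest adjusted p 0.679), with 908 probes (5.17%) at an unadjusted p under 0.05. The steps themselves were not shown to differ: 0 probes passed the test of the difference, with 802 (4.57%) at an unadjusted p under 0.05 and a smallest adjusted p of 0.998. Against the step of shams without a break, 0 passed and 890 (5.07%) had an unadjusted p under 0.05. That step is not balanced over the label runs, as the 6 week sham group has no array in run 4. The smallest adjusted p of this difference was 0.926 (limma), and 0.22 without a run 5 array of that group. Over all probes, 55% had the same sign in the break sham and the smoke and break steps (Pearson r across 17560 probes 0.07). Of the 1340 probes with an unadjusted p under 0.05 in break shams, 63.4% had the same sign in smoke and break lungs (r 0.10), and of the 159 that do not overlap 68.6% did. For the step of shams without a break the share was 55.3% over all probes (r 0.23). There it was 65.1% of the 1340 (r 0.45) and 59.7% of the 159. Probes share arrays and runs, so they are not independent replicates.

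Pooling both break groups, 10 mice against 10, gave 0 called probes with 1538 (8.76%) at an unadjusted p under 0.05. Pde4b again had the smallest adjusted p, 0.125, with −0.74 in break shams, −0.39 in smoke and break lungs and a pooled difference of −0.57. Erg differed by −0.70 in break shams and −0.57 in smoke and break lungs. Lrrc25 (0.40 and 0.36) and Ccl9 (0.50 and 0.35) were alike in sign and size. Sync (0.74 and −0.02), Tnfrsf14 (−0.56 and 0.18) and Kctd8 (−0.98 and 0.33) were not, within wide intervals. Pooled, Pde4b would pass without the 12 week break sham array of run 5, at −0.61.

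**Figure D5:**
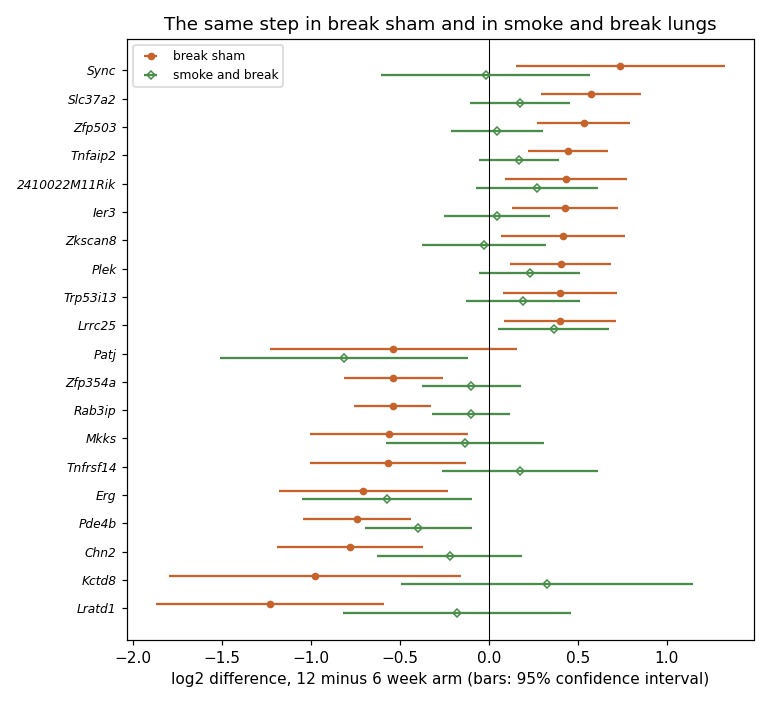
Log2 difference between the 12 and the 6 week arm (x axis) with its 95% confidence interval (bars) for the 20 genes whose break sham groups do not overlap (y axis). Orange circles are break sham lungs, from which the genes were picked, and open green diamonds are smoke and break lungs. Pde4b is at −0.74 and −0.39 and Erg at −0.70 and −0.57, while Kctd8 is at −0.98 and 0.33.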

How the data were processed

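Total RNA from part of the left lung lobe of 39 mice was measured on 2-colour oligonucleotide arrays, and groups were taken from the sample titles. Lung cRNA carried Cy5 and the common reference cRNA Cy3. The authors read spot intensity and local background intensity in both dyes with ImaGene and deposited them without correction. They deposited log2 ratios too, made by global LOWESS in MAANOVA by the authors, and these were tried as an alternative. The authors removed 1 array as an outlier, and the 12 week smoke group has 4 arrays here where the other groups have 5.

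Each array has 22575 spots, 1257 of them controls, and 20868 gene probes. Medians of spot and background were corrected by normexp (offset 50), normalized array by array with loess, giving control spots weight 0, and averaged per probe (R 4.3.3 and limma 3.58.1). The ratios correlated with those of the authors at 0.975 to 0.996 per array. Probes whose Cy5 signal exceeded the trimmed mean plus 3 trimmed SD of negative controls (5% trimmed at each end) in at least 4 arrays of a group were kept, 17560 in all. Probes that list several symbols (30) or no symbol (2603) entered the test but have no name in the text, and 19 symbols were updated. Signals at the scanner limit of 65535 were kept, and genes saturated on all arrays were given no difference. Signal over background stands for depth, and precision is limited by the number of arrays.

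All 39 arrays entered 1 limma model with 8 groups and the 5 label runs as a fixed block, and the Benjamini-Hochberg correction ran over the 17560 probes (threshold 0.05). The study's own model was blocked on dates of hybridization and exposure, which these runs need not match. The labels do not say that mice came from separate cages or litters, and the p-values treat each lung as independent. They rest on a spread pooled over all 39 arrays, not on that of the 10 break sham lungs alone. The fit was tested on simulated data. Alternatives were other background corrections, scalings, filters, blocks and array weights, and the 10 break sham arrays alone. Others left out spots marked by the image analysis software, or each array in turn. Leaving out both break sham arrays of a run was added after the data were seen. The members and gene lists were chosen with earlier results of these data known. The named genes were those past the threshold, the 10 largest differences each way among genes that did not overlap and were above threshold in at least 8 of the 10 arrays, the 2 to 4 largest members of each list described, all clock genes so measured, and Cyp1a1, Cyp1b1 and the sex-linked genes. A gene with several probes was represented by the brightest one. Mmp9, Jund, Ltf, Hspe1 and Hsph1 were named after their values were seen.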

Additional observations from a re-analysis of the deposited data

Results flagged for a closer look

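In each group of 5 arrays, a gene named in the text was listed here where its highest or lowest lung stood apart by more than Dixon's 95% limit. This was so in 19 of 216 gene and group combinations (8.8%), and in 8.22% of all probes in the 6 week group and 8.07% in the 12 week group, where chance alone gives about 1 in 20.

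Of the 19, 10 were run 1 arrays. In the 6 week lung of run 1 these were Atp5c1 at 0.149 (others −0.707 to −0.539), Hspd1 at −0.358, Npas2 at 1.52, Uty at 1.51 and Sftpc at 1.98, saturated. On that array Atp5c1 was also at the scanner limit in both dyes, and Hspd1 in Cy3. In the 12 week lung of run 1 they were Bbc3 at 0.16 (others −0.138 to −0.0962), Cdkn1c at 1.78, Oasl1 at −0.741, Rab3ip at −0.299 and Timp3 at 1.7. For Rab3ip the other 4 lungs read 0.194 to 0.394.

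The 12 week lung of run 4 accounted for 6, each with a dimmer Cy5 spot there than on the other older lungs. They were Sftpa1 at −0.196 (others 4.44 to 4.93), Pon1 at 2.35 (5.27 to 5.79), Per2 at −0.46 (1.02 to 1.48), Lox at −0.964 (−3.25 to −2.9), Csf2 at −0.0495 (1.39 to 1.73) and Lratd1 at −0.0168 (1.51 to 2.13). In all but Pon1 the Cy5 signal there was below the detection threshold.

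Run 2 had Npas2 at −1.35 in the 12 week lung. Run 5 had Cdc25c at −1.08 in the 12 week lung (others −3.31 to −2.87) and Cyp1b1 at −0.711 in the 6 week lung (others −1.57 to −1.47).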

How the results depend on the processing

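The count of 0 called probes between the break sham groups held under most alternatives. It became 2 with array weights (Klf10 and Pde4b), 1 with marked spots left out (Ucp1) and 2 without both run 2 arrays (Ift140 and Rab3ip). Leaving out single arrays gave 0 to 1. Pooled with smoke and break, 0 became 7 with array weights, 3 with marked spots left out and 1 without both run 5 arrays, each including Pde4b, and 0 to 1 with single arrays left out. Both tests of a difference between steps stayed at 0 throughout.

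Non-overlapping probes numbered 159. They were 56 with marked spots left out, which leaves 5536 probes, and 105 of 11174 above threshold in all 10 arrays. With fewer arrays to separate, single arrays left out gave 259 to 391, and leaving out runs 1 to 5 gave 529, 486, 550, 438 and 551.

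Of 3063 gene and setting pairs, 71 in 19 genes had the other sign. Among them were genes near 0, such as Cyp1b1, Csnk1e, Usp2 and Nr1d1. Of genes with an unadjusted p under 0.05, 5 turned, all with marked spots left out: Atp5o 0.0205, Cdkn1c 0.328, Gpx2 0.213, Irf7 −0.0252 and Pon1 0.0261. The cause was not tested. Label run pairs the break sham lungs and was the block in the reported fit. With the 10 arrays fitted alone and so paired, 0 probes were called, 1007 had an unadjusted p under 0.05 and the smallest adjusted p was 0.847.

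Signal over background limits the dimmer genes: 14260 of the 17560 probes were above threshold in at least 8 of the 10 arrays.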
